A study of Mus musculus with 8 samples.

Results

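The CC chemokines and fractalkine were examined as a group of 10 genes out of the 22274 genes of the deposited table: Ccl2, Ccl5, Ccl7, Ccl8, Ccl9, Ccl11, Ccl17, Ccl19, Ccl20 and Cx3cl1. They were chosen by gene symbol, as small secreted or membrane-bound attractants, and all 10 were found. Earlier results of these data were known when they were chosen. RNA came from cultures of primary mouse cardiac fibroblasts, which make the collagen of the heart, given 5 ng/ml TGF-β for 24 h. There were 4 libraries of cells that carried a GFP vector (GFP) and 4 of cells that carried a vector for IRF7 (OEIRF7), an interferon regulatory factor. TGF-β, the cytokine that drives fibroblasts to become myofibroblasts, was given in both groups, so no untreated level is available here. The study's methods describe adenoviral vectors with the CMV promoter and name the IRF7 vector for the human gene. The description of the series instead names an adeno-associated virus. By their names in the methods, the IRF7 vector and the listed control vector both carry EGFP and a FLAG tag. The legend calls the control an empty vector, so the label GFP need not mean that GFP was in that group only. No age, sex or strain of the source mice is given with these libraries. The figure legend that covers this experiment speaks of 3 biological replicates, whereas 4 libraries per group were deposited. Their labels do not say which came from separate cultures or animals, so p-values measure the spread between libraries, which may in part be technical.

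Chemokines act through G protein-coupled receptors on leukocytes and are held on cell surfaces and matrix by proteoglycans. CC chemokines are named for a pair of adjacent cysteines, and many of their genes lie side by side in clusters that arose by gene duplication. Fractalkine, the product of Cx3cl1, is made as a membrane protein with the chemokine domain on a mucin-like stalk, and proteases release it from the cell. In the injured heart, fibroblasts are a known source of monocyte attractants.

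Mouse Irf7 was read first. Its counts were 2861, 3680, 2272 and 3291 in GFP libraries 1 to 4 and 385, 421, 380 and 404 in the libraries labelled OEIRF7, a log2 fold change of -2.96 (SE 0.12). A human IRF7 transgene is not measured by counts of mouse genes, whereas a mouse transgene could be, so the labels are not checked by this gene and every direction is given between libraries as labelled. The opposite strand of Irf7 carries part of Phrf1, and the strand setting of the counting is not stated. Phrf1 had 2305, 2001, 2090 and 2245 counts in GFP and 2005, 2323, 1977 and 2011 counts in OEIRF7. The part of this overlap in the counts of Irf7 was not tested. Total counts were 24454801 to 28658826 per library, and 13533 genes passed the filter on low counts. All 10 fibroblast markers listed passed the filter. Their summed levels were 13500 to 14200 CPM (counts relative to the TMM-scaled library size) in GFP and 11900 to 12500 CPM in OEIRF7. These were the highest sums of the cell types listed. Passing the filter alone does not bear out the fibroblast label, since the endothelial, epicardial and macrophage lists passed it in full too. Of the 10 fibroblast markers, 6 were called lower, among them Tcf21 (log2 fold change -1.33), and 1 higher. Of 8 cardiomyocyte markers, 1 passed the filter (Tnnt2, called lower). Markers of other cell types were present too. The summed level of 8 endothelial markers (all tested, 4 called higher and 1 lower) was 219 to 230 CPM in GFP and 224 to 247 CPM in OEIRF7. For 6 mural cell markers (5 tested, 3 higher and 1 lower) it was 66 to 73.8 CPM and 78.6 to 99.4 CPM, and for 6 epicardial markers (all tested, 2 higher and 2 lower) it was 151 to 159 CPM and 105 to 119 CPM. Within the mural sum, Cspg4 rose from 22.4 to 63.3 mean CPM and Notch3 fell from 41.4 to 13.6 mean CPM. The part of these marker changes in the results was not tested. Among 12 macrophage and leukocyte markers none was at 0: all 12 were tested, 6 were called higher and none lower. Their summed level was 317 to 378 CPM in GFP and 393 to 443 CPM in OEIRF7. Lyz2 alone had a mean of 202 CPM in GFP and 235 CPM in OEIRF7. Calls in all these lists stand beside 29.0% of all tested genes called higher and 29.9% called lower.

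The monocyte attractants Ccl2 and Ccl7 rose in the libraries labelled OEIRF7, by 8.98- and 15.5-fold in mean FPKM (a level per transcript length), and their neighbour Ccl8 rose less. Ccl9 rose slightly. Ccl17 and Cx3cl1 fell, Ccl17 by about a factor of 2. Ccl5 did not pass the test, and Ccl11, Ccl19 and Ccl20 had too few counts to be tested. Thus 7 of 10 members were tested by edgeR's quasi-likelihood test, 4 were called higher and 2 lower with a threshold of 0.05 on the adjusted p. Among the 13533 genes of the fit, 29.0% were called higher and 29.9% lower, so a call alone was common in these libraries. The groups did not overlap in any of the 6 members called, and over all tested genes 26.8% were higher and 27.0% lower without overlap. With a log2 fold change beyond 1 in addition, Ccl2, Ccl7 and Ccl8 were higher, against 4.66% of all tested genes, and Ccl17 was lower, against 3.89%. The median log2 fold change of the 7 members tested was 0.25, and that of all tested genes was 0.002, with the 5th and 95th percentiles at -0.90 and 0.96.

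**Figure D1:**
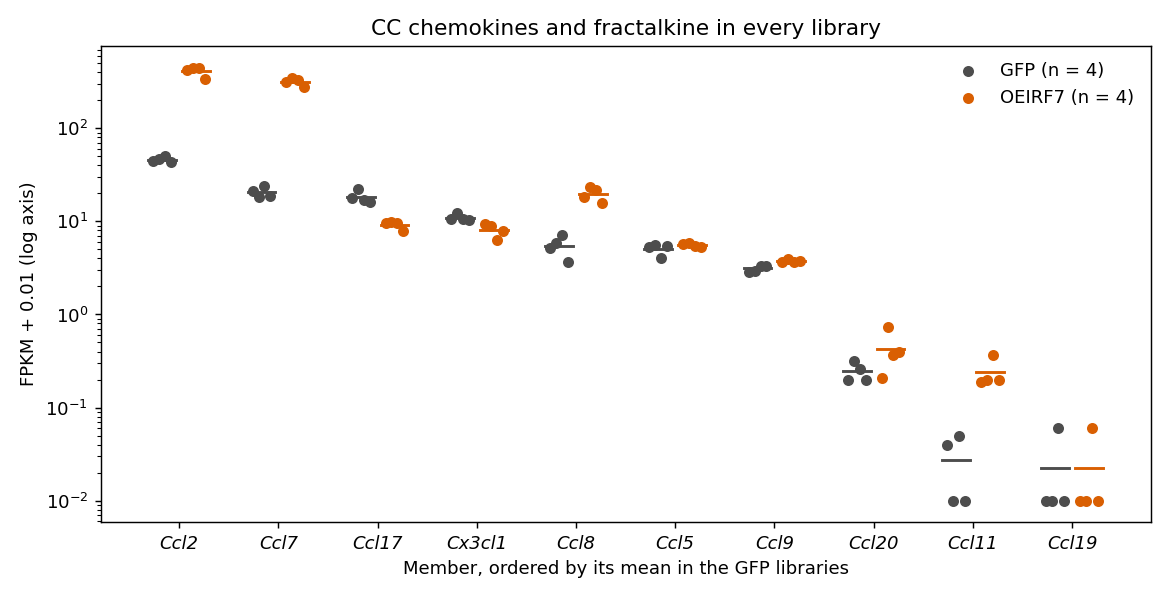
FPKM (plus 0.01, log axis) of the 10 chemokine genes in each of 4 GFP and 4 OEIRF7 libraries, with bars at the group means and genes ordered by their mean in GFP. Ccl2 and Ccl7 sit between 280.73 and 449.75 FPKM in every OEIRF7 library and between 18.06 and 50.06 FPKM in every GFP library, whereas the points of Ccl5, Ccl19 and Ccl20 overlap between groups.

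Upstream sequences are shown for 3 members, of which 2 rose and 1 fell, so that their letters can be read for elements of interferon regulatory factors and of the factors of inflammatory signaling. They are the 250 bases before the start of transcription in RefSeq (GRCm38.p6), written 5′ to 3′ on the strand of the gene, and 6 of the 10 members had an entry (Ccl8, Ccl9, Ccl17, Ccl19, Ccl20 and Cx3cl1). Capitals mark letters that match the IRF element AANNGAAA, the AP-1 element TGANTCA or the NF-kappaB element on either strand. Ccl8 at chr11:82114935-82115184 (plus strand) rose (log2 fold change 1.84), and Ccl9 at chr11:83578637-83578886 (minus strand) rose only slightly (0.25). Ccl17 at chr8:94810203-94810452 (plus strand) fell (-1.02).
Ccl8: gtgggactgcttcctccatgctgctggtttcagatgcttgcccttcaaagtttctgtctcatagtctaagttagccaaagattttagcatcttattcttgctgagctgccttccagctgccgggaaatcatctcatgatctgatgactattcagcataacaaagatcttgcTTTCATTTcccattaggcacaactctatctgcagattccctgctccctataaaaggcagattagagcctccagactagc
Ccl9: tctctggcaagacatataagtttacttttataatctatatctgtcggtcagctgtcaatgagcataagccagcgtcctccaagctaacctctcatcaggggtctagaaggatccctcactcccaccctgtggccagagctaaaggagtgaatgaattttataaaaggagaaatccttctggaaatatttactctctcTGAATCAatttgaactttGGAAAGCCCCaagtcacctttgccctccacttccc
Ccl17: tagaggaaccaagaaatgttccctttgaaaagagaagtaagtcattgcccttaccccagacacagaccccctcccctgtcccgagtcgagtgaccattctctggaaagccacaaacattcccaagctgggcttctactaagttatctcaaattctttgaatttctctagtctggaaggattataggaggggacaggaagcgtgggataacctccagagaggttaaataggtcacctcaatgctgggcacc

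Ccl8 held 1 IRF match at bases -79 to -72 before the start, and Ccl9 held none but had an AP-1 match at -53 to -47 and an NF-kappaB match at -35 to -26. The window of Ccl17 held none of these letters. Of the 6 members with an entry, Ccl8 and Ccl19 held the IRF element, Ccl9 and Ccl20 the NF-kappaB element and Ccl9 the AP-1 element. TATAAA, searched as well, was found in Ccl8 (-32 to -27) and Cx3cl1 (-6 to -1). In Ccl9 it was found at -224 to -219, -94 to -89 and -92 to -87. Matches were counted from 250 bases before to 50 bases after the start, a longer window than the one printed. Among 32851 promoters of the table, counted in the same way, 23.9% held the IRF element, 8.46% the NF-kappaB element, 7.81% the AP-1 element and 13.6% TATAAA. The matches describe letters in these windows and are not evidence of binding. No window of Cx3cl1 is shown, since its RefSeq start lies inside the gene as GENCODE annotates it.

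Ccl2, the classical monocyte chemoattractant that acts through CCR2, was the most abundant member in both groups. The gene (ENSMUSG00000035385) lies on the plus strand at chr11:82035571-82037453 of GRCm38. Its level was 44.35, 46.38, 50.06 and 43.35 FPKM (fragments scaled to transcript length and library size, a level that can be compared between genes) in GFP and 423.14, 443.87, 449.75 and 337.34 FPKM in OEIRF7. The lowest OEIRF7 library, replicate 4, was still far above the highest GFP library. Counts rose from 969 ± 34.4 to 8776 ± 1528 per library (SD, n = 4 per group). The log2 fold change was 3.14 (SE 0.082, 95% interval 2.96 to 3.32, adjusted p = 1.2e-12 by edgeR), which placed Ccl2 at rank 53 of 13533 from the largest rise. By mean FPKM it moved from rank 1678 to rank 121 among all genes of the table. Gm17268 overlaps Ccl2 on the opposite strand and had no count in any library.

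Ccl7, which also attracts monocytes through CCR2, showed the larger fold change of the pair. It (ENSMUSG00000035373) starts 8.26 kb downstream of Ccl2 on the same strand, at chr11:82045712-82047525. Its level was 21.01, 18.06, 23.98 and 18.87 FPKM in GFP and 313.42, 349.06, 328.45 and 280.73 FPKM in OEIRF7. Again OEIRF7 replicate 4 was the lowest of its group and the groups were far apart. This gave a log2 fold change of 3.93 (SE 0.082, 95% interval 3.75 to 4.11, adjusted p = 1.9e-13 by edgeR), rank 32 of 13533. By mean FPKM Ccl7 moved from rank 3711 to rank 186.

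The ratio of Ccl7 to Ccl2 also differed between the groups, a comparison chosen after the values were seen and given without a test. In FPKM it was 0.474, 0.389, 0.479 and 0.435 in GFP and 0.741, 0.786, 0.73 and 0.832 in OEIRF7. Each OEIRF7 library thus held more Ccl7 per Ccl2 than any GFP library. The 95% intervals of the log2 fold changes of Ccl2 and Ccl7 did not overlap either.

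Ccl8, in the mouse a ligand of CCR8, is the last member of the same cluster (ENSMUSG00000009185, chr11:82115185-82116799, plus strand). Its level was 5.13, 5.91, 7.16 and 3.69 FPKM in GFP and 18.38, 23.28, 21.78 and 15.76 FPKM in OEIRF7. The groups did not overlap, although Ccl8 varied more between GFP libraries than Ccl2 or Ccl7 did, with a coefficient of variation in CPM of 26.4% against 6.28% and 12.9%. In the fit its log2 fold change was 1.84 (SE 0.17, 95% interval 1.47 to 2.20, adjusted p = 3.2e-07 by edgeR), rank 219 of 13533. As for Ccl2 and Ccl7, the lowest OEIRF7 value came from replicate 4.

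Ccl11, the eosinophil attractant eotaxin, lies between Ccl7 and Ccl8 (ENSMUSG00000020676, chr11:82057823-82062955, plus strand) and was close to the limit of detection. Its counts were 1, 0, 1 and 0 in GFP and 5, 6, 10 and 5 in OEIRF7. All OEIRF7 libraries had more counts than all GFP libraries (p = 0.029 in an exact permutation test of log2 CPM, two-sided, the smallest that 4 against 4 libraries allow). Summed over libraries this was 2 against 26 counts, a ratio of 13.0 in CPM with an exact 95% counting interval from 3.24 to 113. The interval covers counting error only. Ccl11 did not pass the filter on low counts, so it has no value in the fit over all genes. Even in OEIRF7 its level was 0.23 ± 0.087 FPKM (SD, n = 4), far below that of Ccl2.

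Read along the chromosome, the first cluster on chromosome 11 runs Ccl2, Ccl7, Ccl11, Ccl12, Ccl8 and Ccl1, with gaps of 8.26, 10.3, 38.9, 11.8 and 59.9 kb. Its members Ccl2, Ccl7 and Ccl8 were all called higher. Ccl12, another CCR2 ligand and not a member, had 0.0873 CPM in GFP and 0.462 CPM in OEIRF7 on average and was too low to be tested, and Ccl1 had no count in any library. The 2 genes nearest to each other, Ccl2 and Ccl7, were also the 2 with the highest levels.

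**Figure D2:**
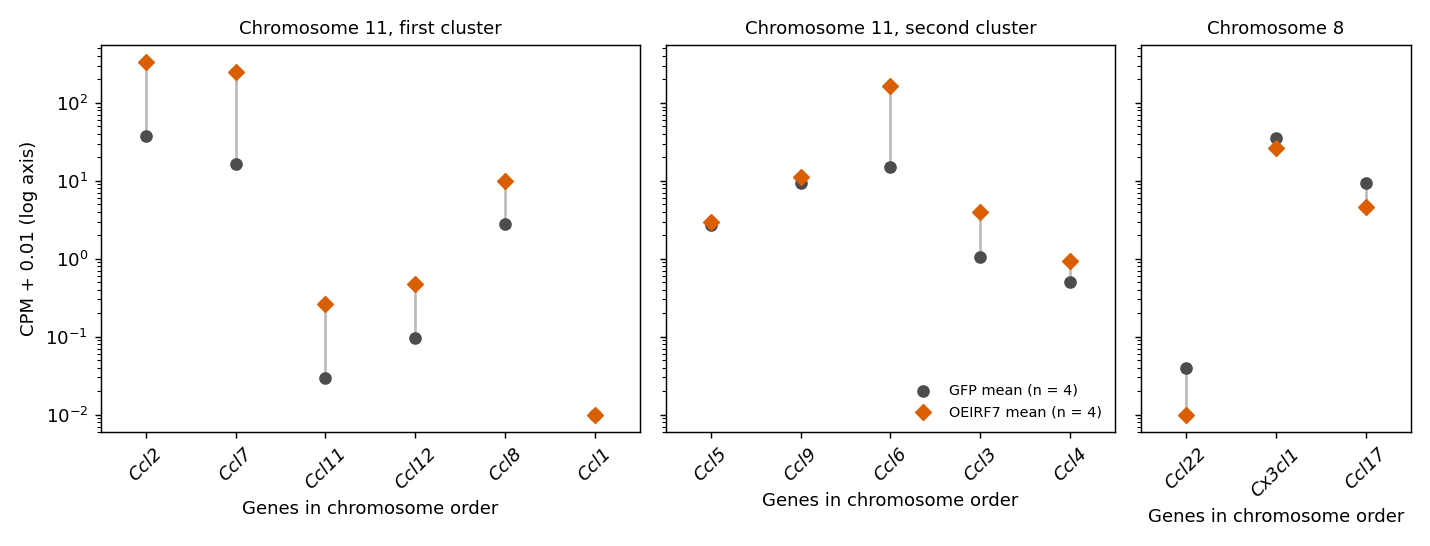
Mean CPM (plus 0.01, log axis) of CC and CX3C ligand genes in GFP (circles) and OEIRF7 (diamonds), n = 4 libraries each, placed in chromosome order in the 2 clusters of chromosome 11 and the cluster of chromosome 8. Ccl2, Ccl7 and Ccl8 lie higher in OEIRF7 in the first cluster, Ccl6 and Ccl3 rise beside nearly level Ccl5 and Ccl9 in the second, and Cx3cl1 and Ccl17 lie lower on chromosome 8.

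Ccl9 and Ccl5 lie further along chromosome 11, in the second cluster, and changed little. Ccl9 (ENSMUSG00000019122, chr11:83572919-83578636, minus strand), a CCR1 ligand also known from macrophages, was 2.87, 2.91, 3.34 and 3.32 FPKM in GFP and 3.66, 3.98, 3.66 and 3.78 FPKM in OEIRF7. Every OEIRF7 value was above every GFP value, by a small margin. The log2 fold change was 0.25 (SE 0.079, 95% interval 0.082 to 0.421, adjusted p = 0.013 by edgeR). It was the member called with the least to spare, and without GFP replicate 1 the adjusted p was 0.049.

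Ccl5 (RANTES; ENSMUSG00000035042, chr11:83525778-83530518, minus strand), a ligand of CCR1 and CCR3 among others and a well-known target of interferon and of interferon regulatory factors, did not pass the test. Its level was 5.27, 5.53, 4.0 and 5.38 FPKM in GFP and 5.69, 5.84, 5.40 and 5.30 FPKM in OEIRF7. The values overlapped, and GFP replicate 3 was low for its group. The fit gave a log2 fold change of 0.11 (SE 0.149, 95% interval -0.21 to 0.43, adjusted p = 0.54 by edgeR). The interval lies below the log2 fold change of Ccl8, the smallest of the 3 large rises, but it does not show that Ccl5 was the same in both groups.

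Other genes of this second cluster, not among the 10 members, changed more. Ccl6, a CCR1 ligand 9.25 kb from Ccl9, had 15.2 ± 3.56 CPM in GFP and 164 ± 7.38 CPM in OEIRF7 (SD, n = 4), a log2 fold change of 3.43 (SE 0.106, adjusted p = 6.9e-12 by edgeR). Ccl3 (MIP-1α), a ligand of CCR1, rose from 1.05 to 3.95 mean CPM, with a log2 fold change of 1.90. Ccl4, its neighbour, was called higher too (0.89, adjusted p = 0.037 by edgeR), but its groups overlapped and it is named after its values were seen. In all, 14 further CC ligands were listed, 13 were in the table and 5 were tested: 3 were called higher, none lower, and Ccl25 (-0.27) and Ccl27a (0.39) did not pass. The median log2 fold change of the 5 was 0.89. Over all tested genes, 29.0% were called higher and 29.9% lower. Ccl1, Ccl21a, Ccl24 and Ccl26 had no count in any library. Ccl6, Ccl3 and Ccl9 are also made by macrophages, and 6 of the 12 macrophage and leukocyte markers were called higher, as given above. Among these Itgam had a log2 fold change of 1.07, Mrc1 1.05 and Lyz2 0.22. The other 6 did not pass the test, among them Ptprc (-0.08), Csf1r (0.06), C1qc (-0.13) and C1qb (-0.32). Their part in these results was not tested. In bulk RNA, more cells of a type and more RNA per cell cannot be told apart.

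Ccl17 and Cx3cl1, neighbours on chromosome 8, were the members that fell. Ccl17 (TARC; ENSMUSG00000031780, chr8:94810453-94812036, plus strand), which attracts CCR4-bearing T cells, was 17.66, 22.19, 16.88 and 16.35 FPKM in GFP and 9.63, 9.78, 9.49 and 7.80 FPKM in OEIRF7. The lowest GFP library was well above the highest OEIRF7 library, and OEIRF7 replicate 4 lay below the other 3, which were close together. The log2 fold change was -1.02 (SE 0.117, 95% interval -1.27 to -0.77, adjusted p = 3.1e-06 by edgeR), rank 512 of 13533 from the largest fall. It lay at the line of -1 and was not past it in 5 of 16 alternative fits, for example without GFP replicate 2 (-0.91) or without OEIRF7 replicate 4 (-0.95).

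Cx3cl1 (ENSMUSG00000031778, chr8:94772009-94782427, plus strand), which encodes fractalkine, lies 28.0 kb upstream of Ccl17. Its level was 10.62, 12.24, 10.67 and 10.37 FPKM in GFP and 9.29, 8.81, 6.33 and 7.82 FPKM in OEIRF7. The groups were apart by about 1 FPKM at their nearest values, and OEIRF7 replicate 3 was the lowest. The log2 fold change was -0.41 (SE 0.10, 95% interval -0.63 to -0.20, adjusted p = 0.0027 by edgeR). Its interval and that of Ccl17 did not overlap. The ratio of Ccl17 to Cx3cl1 in FPKM, also chosen after the values were seen, was 1.66, 1.81, 1.58 and 1.58 in GFP and 1.04, 1.11, 1.5 and 0.997 in OEIRF7. Ccl22, the other CCR4 ligand and the third gene of this cluster, averaged 0.0296 CPM in GFP and had no count in OEIRF7, which was too low to be tested.

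Ccl20 and Ccl19 were scarce. Ccl20 (ENSMUSG00000026166, chr1:83116766-83119167, plus strand), the ligand of CCR6, had 4, 6, 5 and 4 counts in GFP and 4, 17, 7 and 8 counts in OEIRF7. OEIRF7 replicate 2 alone held 17 of the 36 OEIRF7 counts, and the groups overlapped (p = 0.11 in the same exact permutation test). The summed counts, 19 and 36, gave a ratio of 1.89 with an exact 95% counting interval of 1.06 to 3.49, which leaves out the spread between libraries. Ccl19 (ENSMUSG00000071005, chr4:42754525-42756577, minus strand), the CCR7 ligand of lymphoid tissue, had 1 count in 1 library of each group and none in the other 6. A count of 0 allows up to 3 counts in a library, or 0.104 to 0.122 CPM, so a difference in Ccl19 was not detectable at this depth.

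**Figure D3:**
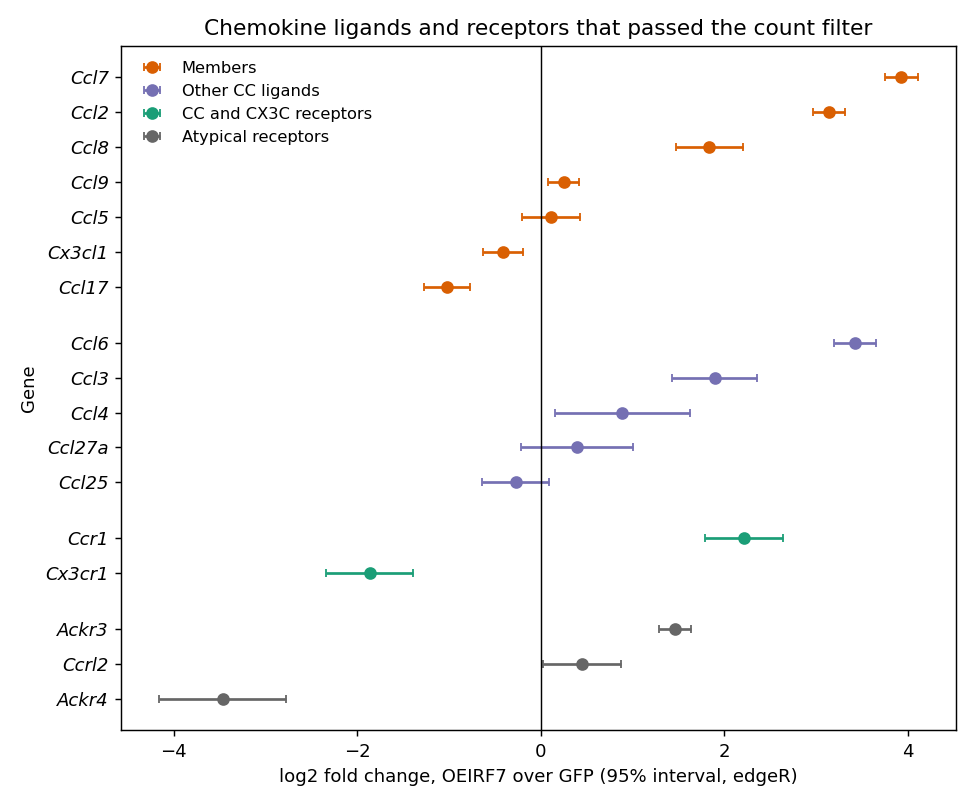
Log2 fold change of OEIRF7 over GFP (x axis, edgeR, n = 4 libraries per group) with its 95% interval for the chemokine genes and receptors that passed the count filter, grouped as the members, the other CC ligands, the CC and CX3C receptors and the atypical receptors. The members run from Ccl7 at 3.93 to Ccl17 at -1.02, with Ccl5 (0.11) across the line of no change, and Ackr4 (-3.46) lies lowest of all genes drawn.

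By FPKM, a level per length, the order of the members differed between the groups. In GFP it was Ccl2, Ccl7, Ccl17, Cx3cl1, Ccl8, Ccl5, Ccl9, Ccl20, Ccl11 and Ccl19. Neighbours whose ranges overlapped in this order were Ccl7 and Ccl17, Ccl8 and Ccl5, and Ccl11 and Ccl19. In OEIRF7 it was Ccl2, Ccl7, Ccl8, Ccl17, Cx3cl1, Ccl5, Ccl9, Ccl20, Ccl11 and Ccl19, with overlapping ranges for Ccl2 and Ccl7, for Ccl17 and Cx3cl1, and for Ccl20 and Ccl11. Ccl8 thus passed Ccl17 and Cx3cl1, and Ccl17 came down to the level of Cx3cl1. The other members kept their place.

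The summed FPKM of the 10 members was 107.1, 113.5, 116.4 and 101.5 in GFP and 783.6, 845.5, 825.6 and 659.1 in OEIRF7, a ratio of means of 7.10. Without Ccl2 and Ccl7 the sum was 43.1 ± 4.19 in GFP and 47.0 ± 4.73 in OEIRF7 (SD, n = 4 per group), a ratio of 1.09. The rise in the sum was therefore carried by these 2 genes. Ccl2 made up 40.9% to 43.0% of the sum in GFP and 51.2% to 54.5% in OEIRF7. Ccl7 made up 15.9% to 20.6% in GFP and 39.8% to 42.6% in OEIRF7. Ccl17 made up 14.5% to 19.5% in GFP and 1.15% to 1.23% in OEIRF7, and Cx3cl1 9.16% to 10.8% and 0.767% to 1.19%. Ccl8, although it rose, took a smaller share, 3.63% to 6.15% in GFP and 2.35% to 2.75% in OEIRF7. Shares of one sum are bound together, so a lower share is not a lower level. In CPM, which is not per length, each of these shares differed in the same direction but by other amounts: Cx3cl1 was lower by 26.7 points rather than by 8.97, and Ccl2 higher by 18.8 points rather than by 11.1.

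**Figure D4:**
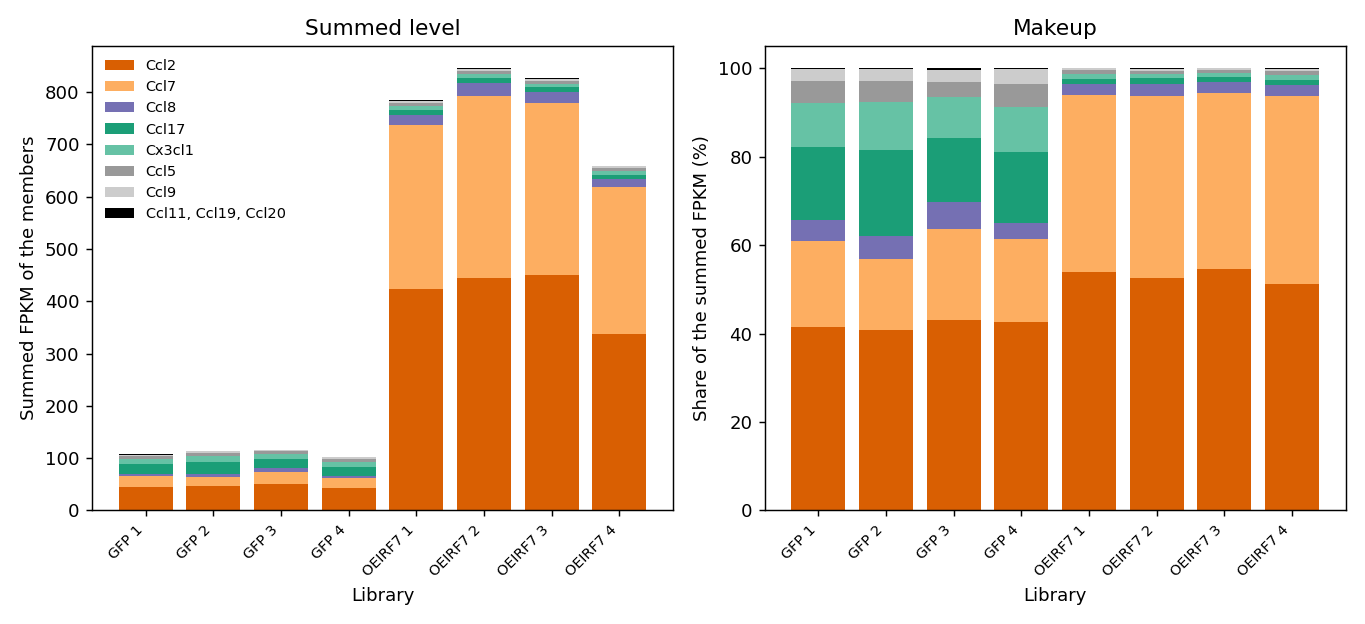
Summed FPKM of the 10 chemokine genes in each of the 8 libraries (left) and the share of each gene in that sum in percent (right), as stacked bars. GFP bars reach 101.5 to 116.4 FPKM and OEIRF7 bars 659.1 to 845.5 FPKM, of which Ccl2 and Ccl7 make up nearly all.

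Over the 8 libraries, the genes whose log2 CPM was most like that of Ccl2 were Sprr2e (Pearson r 0.999) and Ifrd1 (0.998), among 12482 genes with a mean of at least 1 CPM. For Ccl7 they were Spop and Esd (both 0.999), and for Ccl17 they were Man2a1 (0.998) and Upf3a (0.996). The 8 points fall into 2 groups, so these values mostly restate the step between groups: 1399 genes had r above 0.95 with Ccl2, 1411 with Ccl7 and 569 with Ccl17.

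The transcripts of the receptors were low in these cultures, and Ccr2 was nearly absent. Of 10 CC and CX3C receptors, 2 were tested. Ccr1, a receptor of Ccl5, Ccl6, Ccl7 and Ccl9, rose, with 0.883 ± 0.222 CPM in GFP and 4.13 ± 0.529 CPM in OEIRF7 (SD, n = 4; log2 fold change 2.21, SE 0.198, adjusted p = 2.2e-07 by edgeR). Cx3cr1, the receptor of fractalkine and a marker of monocytes and resident macrophages, fell from 2.54 ± 0.351 to 0.691 ± 0.170 CPM (log2 fold change -1.86, SE 0.223, adjusted p = 4.7e-06 by edgeR). Ccr2, through which Ccl2 and Ccl7 act on monocytes, had 1 count in 1 GFP library and none elsewhere. Ccr6 and Ccr8, the receptors of Ccl20 and Ccl8, had no count in any library. Ccr1 and Cx3cr1 are mainly leukocyte genes. The summed macrophage and leukocyte markers, of which Lyz2 was the largest, were 317 to 378 CPM in GFP and 393 to 443 CPM in OEIRF7. The part of these markers in the results was not tested.

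Atypical receptors, which take up chemokines without signaling through G proteins, moved in both directions. Ackr3, a scavenger of CXC chemokines, rose from 7.20 to 19.9 mean CPM (log2 fold change 1.46, SE 0.080). Ackr4, which takes up Ccl19 and other lymphoid chemokines, fell from 4.66 to 0.414 mean CPM (log2 fold change -3.46, SE 0.323). Ccrl2 had a log2 fold change of 0.45 and did not pass the test (adjusted p = 0.065 by edgeR), and 2 of the 5 listed were too low to be tested.

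Of 10 proteases known to cut chemokines or to release fractalkine, 9 were tested, 4 were called higher and 3 lower, where 29.0% and 29.9% of all tested genes were called. The matrix metalloproteases Mmp9 (log2 fold change 5.88), Mmp13 (5.11) and Mmp12 (1.82) rose. Mmp9 came from few counts, with a mean of 0.185 CPM in GFP and 11.2 CPM in OEIRF7. Dpp4, a peptidase that trims the N terminus of several CC chemokines, fell (-1.26). Of the main fractalkine sheddases, Adam10 did not pass the test (-0.06, adjusted p = 0.13 by edgeR) and Adam17 fell by a small amount (-0.14, adjusted p = 0.012 by edgeR).

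All 8 listed heparan sulfate proteoglycans, the surface molecules that can hold chemokines, were called, 3 higher and 5 lower, with a median log2 fold change of -0.50. Over all tested genes the shares were 29.0% and 29.9%. Gpc4 (-1.18), Gpc6 (-0.72) and Sdc1 (-0.53) fell and Sdc4 rose (0.64). Of 8 genes listed as regulators of chemokine mRNA stability, 3 were called higher and 3 lower. Zc3h12a, an endonuclease that destroys inflammatory mRNAs, rose (1.06), as did Zfp36l2 (0.99). Tnfaip3, also in this list but an inhibitor of NF-kappaB signaling, rose as well (0.70). Zfp36 (tristetraprolin), which binds AU-rich elements and promotes decay, fell (-0.28). The medians over the protease and the stability lists were 0.05 and 0.00, beside 0.002 for all tested genes.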

How the data were processed

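RNA was sequenced from 8 libraries, 4 GFP and 4 OEIRF7, grouped by their labels. The authors trimmed reads with Trimmomatic, mapped them to GRCm38 with HISAT2 and deposited raw counts per gene from HTSeq-count and FPKM from Cufflinks with 2 decimals. Their versions and the strand setting are not given in the sources used here, and the labels and the paper name different extraction and library kits. The columns of group means, log2 fold changes, p-values and FDR that the authors deposited hold their own comparison and were not used.

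Counts were tested in R 4.3.3 with edgeR 4.0.16: filterByExpr, TMM, glmQLFit and glmQLFTest without covariates, and Benjamini-Hochberg adjustment over all 13533 genes tested. For each member log2 CPM (prior count 2) was also compared by an exact permutation test, two-sided, with a smallest p of 0.029. It gave 0.029 for each of the 6 members called and 0.40 for Ccl5. Depth was close between libraries, with total counts from 24454801 to 28658826. TMM factors, which scale beyond depth, were 0.989 to 1.01. Pairs of replicates differed beyond sampling noise (chi-square over its degrees of freedom 2.91 to 9.94). FPKM was used to compare levels between genes. Intervals cover counting error only where they are called counting intervals. Coordinates are those of GENCODE M21, and upstream sequences are from RefSeq. In a separate reference of gene names, 22219 of 22274 identifiers were found. Scripts were tested on simulated data.

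Named were all members and Irf7, and of each list of ligands, receptors, proteases, proteoglycans and stability regulators the genes called without overlap between groups, at most the 4 largest with a mean of at least 1 CPM, and any receptor tested. For the 3 most abundant members, the 2 most alike genes were named. The cell type markers, Ccl12, Ccl22, Ccl25, Ccl27a, Adam10 and Adam17 were named after their values were seen, as were receptors and ligands without a value. Lists were described by counts, without tests, and 1 receptor is not reported here. Members and lists were chosen with earlier results of these data known.

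Alternatives were DESeq2 1.42.0, upper-quartile scaling and no scaling, a minimum of 1 count in total or 10 in every library, a block for the replicate number, limma 3.58.1 on FPKM in log2 with 1 or 0.1 added, over genes whose mean was above 0.1 FPKM, and leaving out each library. For shares, the sum was also taken over all CC and CX3C ligands or in CPM.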

Additional observations from a re-analysis of the deposited data

Results flagged for a closer look

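Of 16 groups of 4 libraries (each tested member and Irf7 in each group, in log2 CPM), 2 held a library far from the others by Dixon's 95% criterion, which takes the gap to the nearest library over the range. Chance alone gives about 1 in 20 such groups. Ccl5 in GFP had a ratio of 0.856, with replicate 3 the lowest at 2.15 CPM and the other 3 between 2.84 and 2.97 CPM. Ccl17 in OEIRF7 had a ratio of 0.921, with replicate 4 the lowest at 3.97 CPM and the other 3 between 4.87 and 4.96 CPM. Without single libraries, the log2 fold change of Ccl5 lay between 0.02 and 0.15 and that of Ccl17 between -1.07 and -0.91.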

How the results depend on the processing

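Under each of the 16 alternatives run, the 6 members called kept their direction and an adjusted p under 0.05, and Ccl5 stayed above it (adjusted p from 0.24 to 0.93). The log2 fold changes ranged from 3.09 to 3.23 for Ccl2, 3.87 to 4.01 for Ccl7, 1.68 to 1.99 for Ccl8, 0.21 to 0.29 for Ccl9, -1.07 to -0.91 for Ccl17 and -0.48 to -0.31 for Cx3cl1. Ccl17 was not past the line of -1 in 5 of them: without scaling (-0.99), without GFP replicate 2 (-0.91), without OEIRF7 replicate 4 (-0.95) and in both limma fits (-0.92 and -0.98). Adjusted p-values of Ccl9 ranged from 0.0075 to 0.049 and those of Cx3cl1 from 0.0001 to 0.0091. The number of members called higher was 4 to 5, the fifth being Ccl11, which entered with DESeq2 (adjusted p = 0.0086), with a minimum of 1 count in total (0.0043) and in both limma fits (0.0031 and 0.00073). Its mean was 0.0175 FPKM in GFP and 0.23 FPKM in OEIRF7. In the limma fits it thus passed the minimum of 0.1 FPKM only through OEIRF7. These calls of Ccl11 rest on few counts, nearly all from OEIRF7, and are not taken as support for a rise. Members called lower remained 2 in number. With single libraries left out, 4 members were higher and 2 lower each time, and 3688 to 3871 of all genes tested were higher and 3818 to 3962 lower. Without scaling, 4346 were higher and 3728 lower, with the median of all genes at 0.029, and limma on log2(FPKM + 1) gave 4093 and 3309. With the replicate number as a block, 4057 genes were higher and 4154 lower, and the block changed no call of a member. Deviations of log2 CPM from each gene's group mean were correlated between GFP and OEIRF7 libraries. For same-numbered libraries these correlations were only 0.08 to 0.14, so the numbers were not taken as pairs. In these deviations all 8 libraries correlated best with their own number, a hint from the data. In summed CPM the differences in share moved by over 1.5 times for Ccl2 (18.8 from 11.1 points), Cx3cl1 (-26.7 from -8.97), Ccl17 (-7.55 from -15.5), Ccl9 (-6.52 from -2.36), Ccl5 (-1.92 from -3.91), Ccl8 (-0.899 from -2.41) and Ccl11 (0.0216 from 0.0139), since CPM weights long genes more. With all CC and CX3C ligands in the sum they kept their direction, from 19.1 points for Ccl7 to -13.4 for Ccl17. Depth limits Ccl11, Ccl19 and Ccl20, which rest on few counts.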
